A study of Mus musculus with 4 samples.

Results

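The genes of cardiolipin synthesis and remodelling are 7 genes of the deposited expression table, taken by symbol: the CDP-diacylglycerol synthases Cds1 and Cds2, the phosphatidylglycerophosphate synthase Pgs1, the phosphatase Ptpmt1, cardiolipin synthase Crls1, tafazzin (Taz) and the lysocardiolipin acyltransferase Lclat1. All 7 were found among the 12165 genes of the table. Brown adipose tissue, the heat-producing form of fat, was taken from mice aged 8 weeks that lacked the transcription factor EBF2 (Ebf2 KO, 2 libraries) or were wild type (WT, 2 libraries). All animals were of mixed strain, ate chow and lived at room temperature, and the polyA RNA of the whole tissue was sequenced. The sources used here do not say which part of Ebf2 was deleted, in which cells, or whether animals were pooled. Nothing in the labels says that the 2 libraries of a genotype came from separate animals. The p-values thus set the genotype difference against the spread between libraries, which may not be the spread between animals. In limma that spread is drawn partly from other genes, with 5.605 prior degrees of freedom against 2 of the gene itself.

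Cardiolipin is the signature phospholipid of the inner mitochondrial membrane, where it holds respiratory complexes and carriers in place. Phosphatidate is first activated to CDP-diacylglycerol. PGS1 turns this into phosphatidylglycerophosphate, PTPMT1 removes a phosphate to give phosphatidylglycerol, and CRLS1 joins phosphatidylglycerol to another CDP-diacylglycerol. Tafazzin then exchanges the acyl chains of the new cardiolipin, and loss of human tafazzin causes Barth syndrome. Brown fat is rich in mitochondria and in cardiolipin, and CRLS1 is known in mice to be needed for its heat production.

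The unit of expression was RPKM, the reads per kilobase of a gene scaled to the reads of its library. The library totals behind the values were 176568920 and 162782640 reads in Ebf2 KO replicates 1 and 2, and 199678916 and 176574890 reads in WT replicates 1 and 2. Each of the 7 genes was covered by at least 712 reads in every library. Ebf2 itself was at 0.391 and 0.352 RPKM in the Ebf2 KO libraries and at 2.97 and 2.63 RPKM in the WT libraries (limma adjusted p = 0.00536). The RPKM of most genes was higher in Ebf2 KO, with a median log2 fold change of 0.455 over all genes. Reads assigned to the measured genes made up 59.0% and 61.7% of the totals in Ebf2 KO replicates 1 and 2. In WT replicates 1 and 2 they made up only 43.2% and 45.4%. RPKM is scaled to the whole total, and the part of this difference in the higher RPKM was not tested. Each gene is therefore also given after median-ratio scaling, a setting chosen after seeing the data, which brings the median log2 fold change to -0.006. The X-linked Xist, which female cells transcribe, was at 5.49 and 0.0353 RPKM in Ebf2 KO replicates 1 and 2 and at 5.05 and 6.19 RPKM in the WT libraries, so Ebf2 KO replicate 2 stood apart. The Ebf2 KO libraries thus differed in this mark of female cells, which both WT libraries carried, and the labels give no sex.

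Whole tissue holds several cell types, and in bulk RNA fewer cells of a type cannot be told apart from less RNA per cell. All 7 brown adipocyte markers fell, with a summed RPKM of 947.1 and 361.5 in the Ebf2 KO libraries against 11262 and 12125 in the WT libraries. On RPKM, 4 of 7 general adipocyte markers rose and 0 fell, whereas after median-ratio scaling 0 rose and 1 fell. Of 12 skeletal muscle markers 9 rose, of 8 fibroblast and precursor markers 8 rose, and of 6 macrophage markers 4 rose on RPKM, against 4, 5 and 4 after median-ratio scaling. Their summed RPKM was 9783 and 10689, 1175 and 2136.5, and 84.0 and 79.7 in the Ebf2 KO libraries. In the WT libraries the sums were 1043 and 2715, 215.8 and 473.3, and 17.0 and 46.0. Beside these marker counts, 24.4% of all genes were called higher and 3.54% lower on RPKM. After median-ratio scaling the shares of all genes were 7.72% higher and 7.58% lower. None of the 5 endothelial markers passed limma's adjusted p on RPKM or after median-ratio scaling. At an unadjusted p under 0.05, 1 was higher and 0 lower on RPKM, but 0 were higher and 1 lower after median-ratio scaling. Of 5 lymphocyte markers only Cd79a was measured, at no more than 0.747 RPKM in any library. No measured marker of these lists was at 0 in any library. The part of these shifts in the results below was not tested.

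The 2 genes of the set that were lowest in Ebf2 KO relative to WT, Crls1 and Cds1, are shown with the 250 bases before their transcription start, because their 5′ flanks carried the matches found among 7 factor motifs. The sequences are RefSeq's on build GRCm38.p6, which is not the build the authors aligned to, and run 5′ to 3′ on the plus strand with motif matches in capitals. The capitals mark an E-box (CACGTG) before Crls1 at chr2:132846416-132846665 and a cyclic AMP response element (TGACGTCA) before Cds1 at chr5:101764880-101765129.
Crls1: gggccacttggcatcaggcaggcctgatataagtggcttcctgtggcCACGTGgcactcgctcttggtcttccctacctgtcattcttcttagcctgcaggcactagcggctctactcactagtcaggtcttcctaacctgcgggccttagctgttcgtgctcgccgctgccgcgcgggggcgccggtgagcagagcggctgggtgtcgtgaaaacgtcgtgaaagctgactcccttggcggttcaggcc
Cds1: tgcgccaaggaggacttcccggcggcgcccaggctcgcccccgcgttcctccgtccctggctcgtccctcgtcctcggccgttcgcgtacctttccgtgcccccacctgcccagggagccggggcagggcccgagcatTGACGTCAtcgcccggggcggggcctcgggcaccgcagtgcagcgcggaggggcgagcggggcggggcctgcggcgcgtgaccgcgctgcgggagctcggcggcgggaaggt
Over 32851 promoter windows of the same length, 6.02% held the E-box and 1.55% the cyclic AMP response element, each searched on both strands. The other motifs searched were the EBF palindrome (0.779% of windows), the direct repeat with a spacer of 1 base bound by PPAR and RXR (0.0335%), the estrogen-related receptor motif TCAAGGTCA (0.387%), the NRF1 palindrome (0.782%) and the ETS motif CCGGAAG (6.91%). None of these letters occurred in the windows of the 7 genes, where Crls1 and Cds2 each had a second annotated start. The motifs do not overlap one another in the printed windows. A match is a description of the letters, not a binding site. The printed windows before Crls1 and Cds1 held 61.6% and 77.6% G and C, against a median of 52.4% over all windows, and the window before the second Crls1 start held 42.4%.

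Crls1, which makes cardiolipin in the last step, was the only one of the 7 genes whose change passed the threshold on RPKM. It stood at 28.3 and 21.8 RPKM in the Ebf2 KO libraries and at 75.7 and 45.1 RPKM in the WT libraries. Both Ebf2 KO libraries lay below both WT libraries, and the WT libraries differed from each other by more than the Ebf2 KO libraries did. The mean was 25.0 ± 4.62 RPKM in Ebf2 KO and 60.4 ± 21.7 RPKM in WT (SD, n = 2 each), a 2.41-fold lower mean in Ebf2 KO. Measured as log2(RPKM + 1), Crls1 fell by 1.20 (SE 0.283, limma adjusted p = 0.0224). After median-ratio scaling it fell by 1.85 (SE 0.411, limma adjusted p = 0.0274), and the authors' deposited table gave a log2 fold change of -1.95 (edgeR FDR 8.19e-05). The call on RPKM was lost without Ebf2 KO replicate 2, where the log2 fold change was -1.02 (limma adjusted p = 0.0936). Over all genes 3.54% were called lower and 24.4% higher on RPKM, beside 1 lower and 0 higher of the 7 genes by limma's adjusted p. At an unadjusted p under 0.05, 2 of the 7 were lower (Crls1 and Cds1) and 2 higher (Cds2 and Pgs1), beside 5.32% and 40.5% of all genes.

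**Figure D1:**
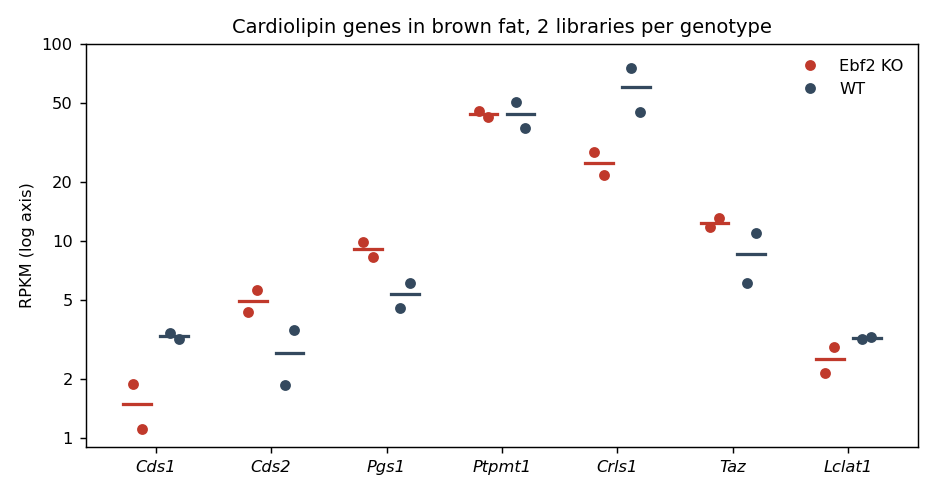
RPKM of the 7 cardiolipin genes on a log axis, in the order of the pathway, with 1 point per library (Ebf2 KO in red, WT in dark blue) and a bar at the mean of each genotype. Crls1 lies at 21.8 to 28.3 RPKM in Ebf2 KO and at 45.1 to 75.7 RPKM in WT, while the Ptpmt1 values of the genotypes overlap.

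The supply of CDP-diacylglycerol in the endoplasmic reticulum rests on the paralogs Cds1 and Cds2, and their values differed in opposite directions. Cds1 was at 1.88 and 1.12 RPKM in the Ebf2 KO libraries and at 3.43 and 3.17 RPKM in the WT libraries. Cds2 was at 4.35 and 5.63 RPKM in the Ebf2 KO libraries and at 1.87 and 3.56 RPKM in the WT libraries. For both genes the genotypes did not overlap, with Cds1 lower and Cds2 higher in Ebf2 KO. The log2 fold change of Cds1 was -0.80 (SE 0.262, limma adjusted p = 0.0553) and that of Cds2 0.72 (SE 0.306, limma adjusted p = 0.107), so neither passed on RPKM. After median-ratio scaling Cds1 fell by 1.24 (SE 0.240, limma adjusted p = 0.0190), whereas Cds2 had a log2 fold change of 0.21 (adjusted p = 0.549). Log2 fold changes in the authors' deposited table were -1.77 for Cds1 (edgeR FDR 0.000109) and 0.27 for Cds2 (edgeR FDR 0.617).

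The share of Cds1 in the summed RPKM of the pair does not depend on how libraries are scaled. It was 30.2% and 16.5% in the Ebf2 KO libraries and 64.7% and 47.1% in the WT libraries. Both Ebf2 KO shares lay below both WT shares, with means of 23.4% ± 9.67 in Ebf2 KO and 55.9% ± 12.5 in WT (SD, n = 2 each; 2-sided exact permutation p = 0.333, the smallest that 2 against 2 libraries allow). Counted in recovered reads, without dividing by gene length, the share of Cds1 was 15.9% and 7.96% in the Ebf2 KO libraries and 44.5% and 28.0% in the WT libraries, again without overlap but below that of Cds2 in every library. The summed RPKM of the pair was 6.23 and 6.75 in the Ebf2 KO libraries and 5.30 and 6.73 in the WT libraries, which overlap. The sources used here do not say how reads that match both paralogs were counted. Tamm41, which makes CDP-diacylglycerol inside mitochondria, is named here after its values were seen. It was at 7.29 and 9.33 RPKM in Ebf2 KO and at 7.36 and 8.84 RPKM in WT, with overlapping genotypes (limma adjusted p = 0.931). After median-ratio scaling its log2 fold change was -0.57 (SE 0.198, limma adjusted p = 0.0985, limma unadjusted p = 0.0237).

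Pgs1, which commits CDP-diacylglycerol to the cardiolipin branch, was at 9.89 and 8.31 RPKM in the Ebf2 KO libraries and at 4.59 and 6.15 RPKM in the WT libraries. The Ebf2 KO libraries were the higher ones, without overlap. The log2 fold change of 0.67 (SE 0.247, limma adjusted p = 0.0742) did not pass, and it was 0.09 after median-ratio scaling (SE 0.224, adjusted p = 0.814). Ptpmt1, the phosphatase of the next step, was at 45.7 and 42.8 RPKM in the Ebf2 KO libraries and at 50.6 and 37.3 RPKM in the WT libraries. Its Ebf2 KO values lay between the WT values, and the log2 fold change was 0.025 (SE 0.220, limma adjusted p = 0.935), or -0.63 after median-ratio scaling (SE 0.338, adjusted p = 0.250). In the GENCODE M21 annotation 1657 of 3684 exonic bases of Ptpmt1 are shared with Kbtbd4 on the opposite strand. Without a stated strand setting the reads of the pair cannot be told apart there. Kbtbd4 was at 3.08 and 3.40 RPKM in Ebf2 KO and 2.17 and 2.73 RPKM in WT. The gene length recovered for Ptpmt1 was 1321 bases, so the overlap within the gene model that was counted is not known.

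Taz encodes the transacylase tafazzin; the coactivator also known as TAZ is listed separately as Wwtr1. Taz was at 11.8 and 13.1 RPKM in the Ebf2 KO libraries and at 6.13 and 11.0 RPKM in the WT libraries. The genotypes did not overlap, with Ebf2 KO higher, but WT replicate 2 was nearer to the Ebf2 KO libraries than to WT replicate 1. The log2 fold change was 0.53 (SE 0.286, limma adjusted p = 0.176), and -0.07 after median-ratio scaling (SE 0.232, adjusted p = 0.869), so its sign depended on the scaling. Taz is X-linked, and the library nearly without Xist had the higher of the Ebf2 KO values; the part of this in the difference was not tested. Lclat1, an acyltransferase of the endoplasmic reticulum that acylates lysocardiolipin and other lysophospholipids, was at 2.14 and 2.89 RPKM in the Ebf2 KO libraries and at 3.19 and 3.28 RPKM in the WT libraries. Both Ebf2 KO values lay below both WT values, by a log2 fold change of -0.28 (SE 0.253, limma adjusted p = 0.406). After median-ratio scaling Lclat1 fell by 0.77 (SE 0.187, limma adjusted p = 0.0358), and the authors' deposited table gave -1.02 (edgeR FDR 0.00778).

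Crls1, Cds1 and Lclat1 were thus called lower after median-ratio scaling, 3 of the 7 genes, where 7.58% of all genes were called lower and 7.72% higher. After median centring, too, 3 were called lower and 0 higher, beside 10.3% and 8.42% of all genes. The authors' deposited table also called 3 lower and 0 higher at an FDR under 0.05, beside 10.5% and 10.9% of all genes. The calls depended on single libraries. After median-ratio scaling none of the 7 genes was called without Ebf2 KO replicate 2 (adjusted p of 0.123 for Crls1, 0.0957 for Cds1 and 0.146 for Lclat1) and none without WT replicate 1 (0.0695, 0.0694 and 0.0989 in the same order), and Lclat1 lost its call without Ebf2 KO replicate 1 (0.186). On RPKM without WT replicate 2, Cds1 was called lower (adjusted p = 0.0436) and Cds2, Pgs1 and Taz were called higher (0.0129, 0.0248 and 0.0112). In that setting 4.45% of all genes were called lower and 36.8% higher, so the 3 of 7 higher are near the background. WT replicate 1, which then stood alone for WT, had the lowest value of Cds2, Pgs1 and Taz and also the lowest summed muscle, fibroblast and macrophage markers. Low values there were not special to these genes, since its median-ratio scaling factor over all genes was the lowest, at 0.7007. The factor was 0.9012 in WT replicate 2, and 1.158 and 1.378 in Ebf2 KO replicates 1 and 2. The part of the markers or of the scaling in these calls was not tested.

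**Figure D2:**
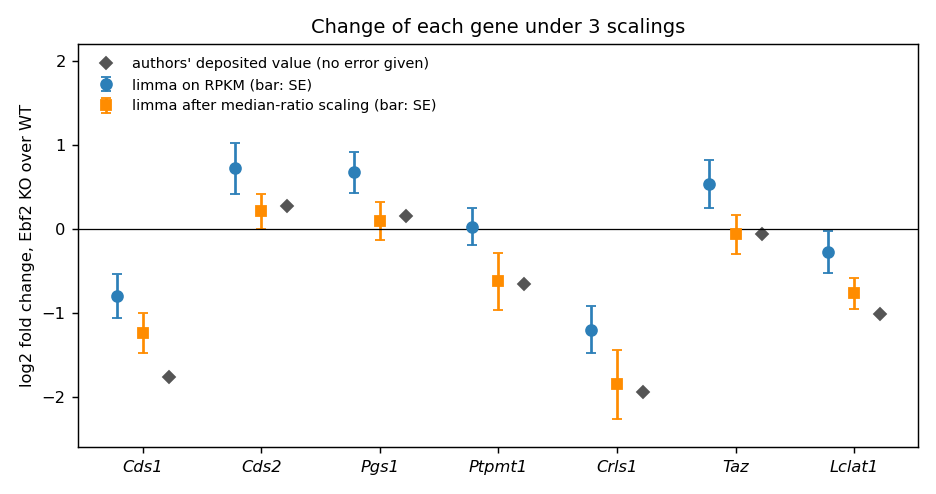
Log2 fold change of Ebf2 KO over WT for each cardiolipin gene, from limma on RPKM (circles, with SE), from limma after median-ratio scaling (squares, with SE) and from the authors' deposited table (diamonds). Crls1 lies between -1.20 and -1.95 on all 3 scales, and Taz lies at 0.53 on RPKM and at -0.07 on the others.

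Counted by overlap alone, 3 genes (Crls1, Cds1 and Lclat1) had both Ebf2 KO values below both WT values and 3 (Cds2, Pgs1 and Taz) had both above. Over all genes these patterns made up 9.3% and 65.4%. The order of the RPKM levels differed at its top. In both Ebf2 KO libraries Ptpmt1 was the highest, followed by Crls1, Taz and Pgs1. In both WT libraries Crls1 was the highest, followed by Ptpmt1, Taz and Pgs1. In Ebf2 KO these were followed by Cds2, Lclat1 and Cds1, and no neighbours in the order overlapped. In WT the values of Crls1 and Ptpmt1 overlapped across the libraries, as did those of Taz and Pgs1 and those of the lowest 3 genes. Within each WT library Crls1 was still above Ptpmt1 and Taz above Pgs1, whereas the order of the lowest 3 differed between the WT libraries. Crls1 ranked at percentiles 85.5 and 81.4 of all genes in the Ebf2 KO libraries and at 95.0 and 92.2 in the WT libraries, and Cds1 at 28.4 and 11.0 in Ebf2 KO and at 56.4 and 46.9 in WT. The percentile ranges of Pgs1 were 62.0 to 68.8 in Ebf2 KO and 62.8 to 63.8 in WT.

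Crls1 took a smaller part of the set in Ebf2 KO. It made up 27.2% and 22.8% of the summed RPKM of the 7 genes in the Ebf2 KO libraries and 52.0% and 41.2% in the WT libraries. The ratio of Crls1 to Pgs1 RPKM was 2.86 and 2.62 in the Ebf2 KO libraries and 16.5 and 7.33 in the WT libraries. The ratio of Crls1 to Ptpmt1 was 0.619 and 0.509 in Ebf2 KO and 1.50 and 1.21 in WT. The genotypes did not overlap in either ratio (2-sided exact permutation p = 0.333 each, the smallest possible).

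**Figure D3:**
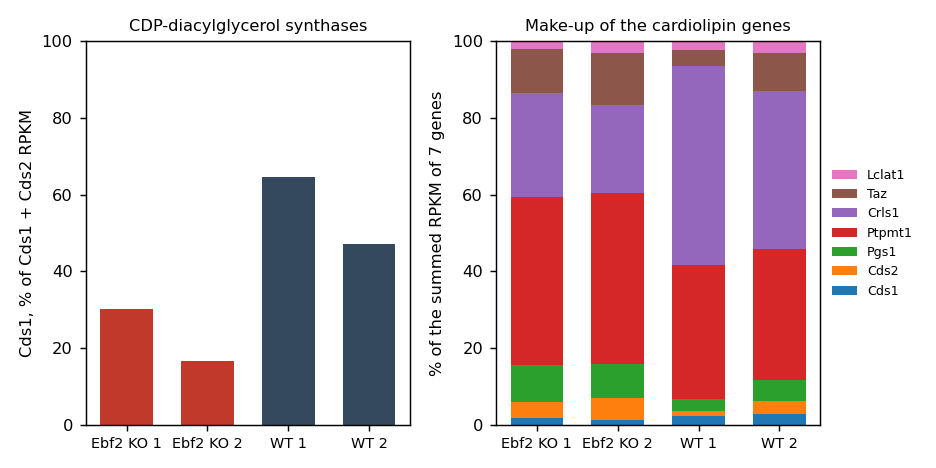
Left, the percentage of Cds1 in the summed RPKM of Cds1 and Cds2 in each library; right, the percentage of each gene in the summed RPKM of all 7 (1 bar per library, Ebf2 KO before WT). Cds1 makes up 16.5% to 30.2% of the pair in Ebf2 KO and 47.1% to 64.7% in WT, and Crls1 22.8% to 27.2% of the set in Ebf2 KO and 41.2% to 52.0% in WT.

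Since cardiolipin belongs to mitochondria, each gene was set against 16 mitochondrial genes of the same library. Of these 16, 13 fell and 1 rose on RPKM, with a median log2 fold change of -1.05, that is -1.50 relative to all genes. Among all genes 3.54% were called lower and 24.4% higher. Citrate synthase (Cs) had a log2 fold change of -1.67 (SE 0.221), the complex III subunit Uqcrc1 of -1.68 (SE 0.235) and the cytochrome oxidase subunit Cox5a of -1.75 (SE 0.275), with limma adjusted p of 0.00428, 0.00506 and 0.00696. The outer membrane channel Vdac1 rose by 0.67 on RPKM (limma adjusted p = 0.0460), a call that was lost without either Ebf2 KO library or WT replicate 1 and after median-ratio scaling (0.992). Without Ebf2 KO replicate 2 the count of falling genes was 3, and without Ebf2 KO replicate 1 it was 8; after median-ratio scaling 13 fell, but 0 without Ebf2 KO replicate 2 and 3 without Ebf2 KO replicate 1.

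The log2 ratio of Crls1 to the median of these genes, on log2(RPKM + 1), was -2.47 and -2.76 in the Ebf2 KO libraries and -2.33 and -3.27 in the WT libraries. The Ebf2 KO values lay within the WT range, and the means differed by 0.18 (exact permutation p = 1). The sign of this difference was not stable, at -0.15 with the mean of the list in place of its median, -0.29 without WT replicate 2 and 0.65 without WT replicate 1. The ratio of Pgs1 was -3.90 and -4.05 in the Ebf2 KO libraries and -6.10 and -5.95 in the WT libraries. The ratio of Taz was -3.67 and -3.46 in Ebf2 KO and -5.75 and -5.21 in WT, and that of Ptpmt1 was -1.80 and -1.82 in Ebf2 KO and -2.90 and -3.53 in WT. Relative to the mitochondrial genes, the mean of Cds2 was higher in Ebf2 KO by 2.10, that of Pgs1 by 2.05, Taz by 1.92, Ptpmt1 by 1.41, Lclat1 by 1.11 and Cds1 by 0.58 on the log2 scale. In each of these 6 genes the Ebf2 KO libraries were higher without overlap (2-sided exact permutation p = 0.333 each, the smallest possible), as they were for 97.5% of all genes, so this count is near the background. Over all genes the median difference on this scale was 1.84, below the values of Cds2, Pgs1 and Taz and above those of Ptpmt1, Lclat1, Cds1 and Crls1. For Cds1 the size and the lack of overlap depended on the pseudocount. With 0.1 RPKM in place of 1 its ratio was -6.35 and -6.98 in the Ebf2 KO libraries and -6.76 and -7.08 in the WT libraries, which overlap, and the difference was 0.26.

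**Figure D4:**
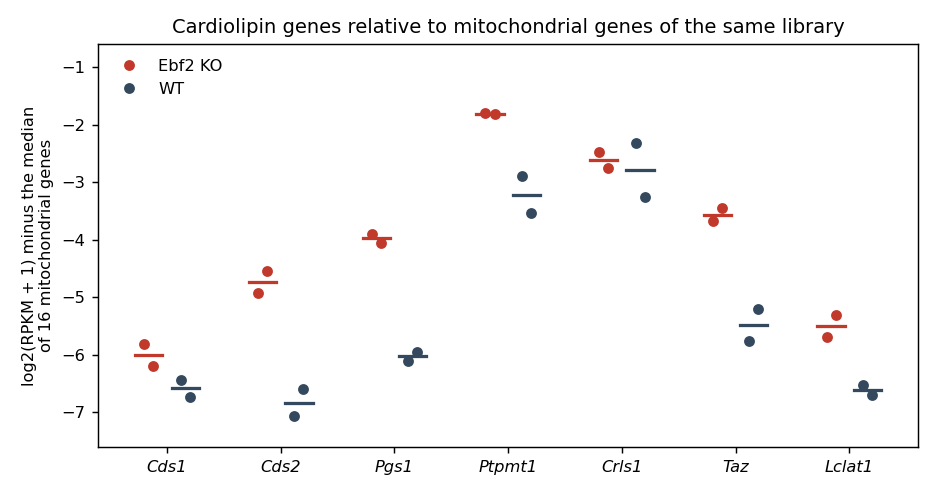
Log2(RPKM + 1) of each cardiolipin gene minus the median log2(RPKM + 1) of 16 mitochondrial genes in the same library, with 1 point per library and a bar at the mean of each genotype (Ebf2 KO in red, WT in dark blue). The Crls1 values of the genotypes overlap, while Pgs1 lies near -4 in Ebf2 KO and near -6 in WT.

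The genes whose profile over the 4 libraries lay nearest to that of Crls1 were searched among the 5475 genes that averaged 5 RPKM or more, by the Euclidean distance of gene-centred log2(RPKM + 1). They were Sephs2, Etfb, Sh2d7, Mir7051 and Fam117a, at distances of 0.202 to 0.237. Etfb, the beta subunit of the electron transfer flavoprotein that feeds electrons from fatty acid oxidation to the respiratory chain, was at 705.4 and 540.9 RPKM in the Ebf2 KO libraries and at 1722 and 1263 RPKM in the WT libraries. Sephs2, a selenophosphate synthetase, was at 15.8 and 10.5 RPKM in Ebf2 KO and at 43.8 and 27.0 RPKM in WT. In both, as in Crls1, the first library of each genotype was the higher one. They were picked for their closeness to Crls1 over these same libraries, so the shared order is no separate result.

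Genes that supply, move or break down cardiolipin and its precursors, or act beside it, changed in both directions. Of 20 measured, 3 rose and 4 fell on RPKM, with a median log2 fold change of 0.27 against 0.455 for all genes. Over all genes 24.4% were called higher and 3.54% lower on RPKM, so the count of rises was not above the background. Slmo2, of the PRELI family of mitochondrial lipid carriers, was at 30.8 and 25.0 RPKM in the Ebf2 KO libraries and at 120.1 and 153.0 RPKM in the WT libraries, a log2 fold change of -2.25 (SE 0.222, limma adjusted p = 0.00185). Hadha, the trifunctional protein subunit of fatty acid oxidation, a form of which acylates monolysocardiolipin in human cells, fell by 1.93 (SE 0.218, adjusted p = 0.00281) to 70.2 and 55.8 RPKM in Ebf2 KO, against 227.5 and 257.6 RPKM in WT. The inner membrane scaffold prohibitin (Phb) fell by 1.03 (SE 0.203, adjusted p = 0.0137). Pld6, a phospholipase of the mitochondrial surface that cleaves cardiolipin, fell to 0.286 and 0.201 RPKM in Ebf2 KO, against 1.05 and 1.63 RPKM in WT (adjusted p = 0.0178). All 4 also fell after median-ratio scaling, with adjusted p between 0.00313 and 0.0185.

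Among the members that rose, Lpgat1, an acyltransferase of lysophosphatidylglycerol, was at 22.5 and 26.7 RPKM in the Ebf2 KO libraries and at 4.74 and 4.28 RPKM in the WT libraries. It rose by 2.21 (SE 0.218, limma adjusted p = 0.00185) and kept its call after median-ratio scaling (0.00873). Nme4, a mitochondrial nucleoside diphosphate kinase that binds cardiolipin, rose by 1.35 and Prelid2, also of the PRELI family, by 0.85 on RPKM (adjusted p of 0.0200 and 0.0412). Neither passed after median-ratio scaling (0.0548 and 0.328). Without Ebf2 KO replicate 2 the counts on RPKM were 1 higher and 2 lower. Leaving out Ebf2 KO replicate 1 gave 1 higher and 4 lower, and leaving out WT replicate 2 gave 4 higher and 6 lower.

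Of 18 measured genes that make or use phosphatidate, the precursor of CDP-diacylglycerol, 3 rose and 2 fell on RPKM, with a median log2 fold change of 0.44. Beside them 24.4% of all genes were called higher and 3.54% lower, so these rises, too, were not above the background. The glycerol phosphate acyltransferases of the endoplasmic reticulum moved in opposite directions. Agpat9, which encodes GPAT3, was at 90.5 and 40.7 RPKM in the Ebf2 KO libraries and at 8.55 and 9.35 RPKM in the WT libraries. Agpat9 rose by 2.64 (SE 0.349, limma adjusted p = 0.00428). Agpat6, which encodes GPAT4, was at 22.4 and 19.0 RPKM in the Ebf2 KO libraries and at 50.4 and 54.1 RPKM in the WT libraries. Agpat6 fell by 1.30 (SE 0.200, adjusted p = 0.00670). The lysophosphatidate acyltransferase Agpat3 fell by 1.08 (SE 0.206, adjusted p = 0.0125). The lipid phosphate phosphatase Ppap2b rose by 1.60 and the phosphatidate phosphatase Lpin1 by 1.13 on RPKM (adjusted p of 0.00654 and 0.0217); the call of Lpin1 was lost after median-ratio scaling (0.230) and the others held. These counts on RPKM depended on single libraries.

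Of 17 measured genes that make or reacylate other membrane phospholipids, 6 rose and 1 fell on RPKM, with a median log2 fold change of 0.49, close to that of all genes. The shares of all genes called on RPKM were 24.4% higher and 3.54% lower. The phosphatidylserine synthase Ptdss1 was at 11.5 and 10.9 RPKM in the Ebf2 KO libraries and at 4.83 and 4.59 RPKM in the WT libraries (limma adjusted p = 0.0147). Cept1, of the final step of phosphatidylcholine and phosphatidylethanolamine synthesis, rose by 1.17, the lysophospholipid acyltransferase Lpcat3 by 0.91 and the methyltransferase Pemt by 0.91. None of the 6 kept its call after median-ratio scaling, where 0 rose and 3 fell by limma's adjusted p (2 higher and 4 lower at an unadjusted p under 0.05). In that setting 7.72% of all genes were called higher and 7.58% lower by limma's adjusted p. The choline kinase Chkb fell by 1.88 (SE 0.203, adjusted p = 0.00247) and also passed after median-ratio scaling (0.00293), but part of its reads can belong to a listed readthrough gene that joins it to Cpt1b. Without Ebf2 KO replicate 1 or replicate 2 the count of rising genes on RPKM was 1, and without WT replicate 1 the falling genes were 2.

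**Figure D5:**
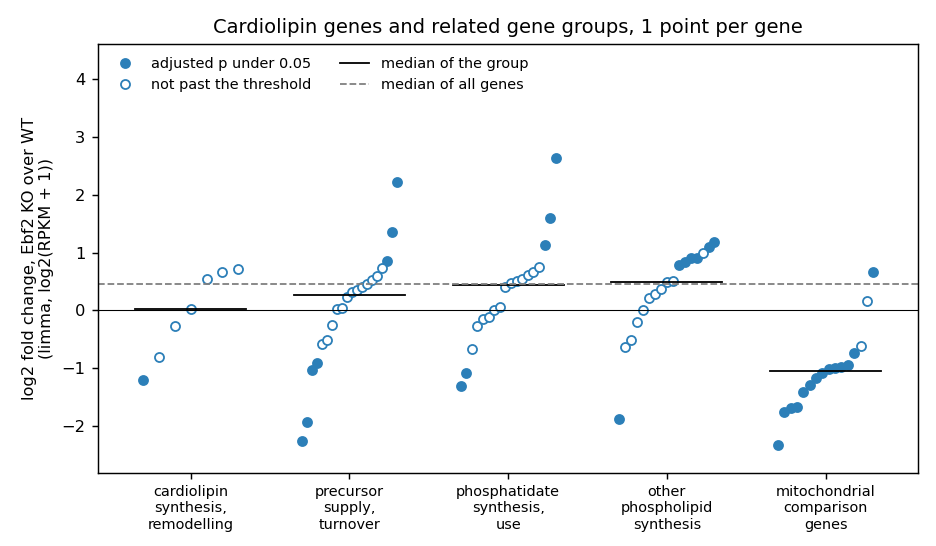
Log2 fold change of Ebf2 KO over WT (limma on log2(RPKM + 1)) for each gene of 5 groups, sorted within a group, with filled points for genes past an adjusted p of 0.05, a black bar at the group's median and a dashed line at the median of all genes (0.455). The mitochondrial comparison genes have a median of -1.05, whereas the other groups have medians between 0.025 and 0.49.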

How the data were processed

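Per the submitters' processing notes, the authors aligned the reads with STAR to mm9 and compared the genotypes with edgeR (the sources used here do not give versions, counting tool, annotation or strand setting). The deposited table holds 1 RPKM per gene and library and, per the file headers, the authors' mean RPKM, log2 fold change (KO over WT), average log2 CPM, p-value and FDR. Every listed gene reached 0.5 RPKM in at least 1 library. From here, limma 3.58.1 (R 4.3.3) was run with its trend option on log2(RPKM + 1) for all 12165 genes and 4 libraries with genotype as the only term, and p-values were adjusted by Benjamini-Hochberg with a threshold of 0.05. This scale understates the change of genes near 1 RPKM; fold values are ratios of mean RPKM. Reads were recovered from the RPKM of 158 microRNA genes of known length and came out whole for all 12165 genes within 1e-06 reads; RPKM does not say whether reads are independent molecules. Median-ratio scaling divided each library by its median ratio to the geometric mean over 12149 genes above 0 in all libraries. The replicates of a genotype differed far beyond sampling noise. The members, gene lists and motifs were chosen with earlier results of these data known, and the promoter sequences had been seen when the motifs were chosen; the rule for other named genes was up to 4 called members per list and direction with the smallest p, of which 1 is not reported here. The fit was tested on simulated data without a shift between libraries, which differs from these libraries and so does not test their calls.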

Additional observations from a re-analysis of the deposited data

How the results depend on the processing

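Of the settings below, median-ratio scaling, alone and with libraries left out, was chosen after seeing the data; where a value moved, the cause was not tested. No result of these lists changed sign past the threshold. The log2 fold change of Crls1 kept its direction and its call in every setting that kept all 4 libraries except an adjusted p under 0.01 (-1.20, and 0 cardiolipin genes lower by limma). Cds1 passed after median centring (-1.32), quantile normalization (-1.25), without a variance trend (-0.80), after median-ratio scaling (-1.24) and in the authors' deposited values (-1.77). Lclat1 passed in the same settings except the one without a trend, at -0.80, -0.78, -0.77 and -1.02. Cardiolipin genes lower in Ebf2 KO numbered 3 after centring, quantile normalization, median-ratio scaling and in the authors' table, and 2 without a trend. A minimum mean of 5 RPKM gives no value for Cds1, Cds2 and Lclat1.

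Over all genes, 1024 were higher and 1253 lower after median centring, 1048 and 1010 after quantile normalization, 939 and 922 after median-ratio scaling, 1325 and 1277 in the authors' table, and 565 and 145 at an adjusted p under 0.01. With a minimum mean of 5 RPKM 1717 were higher. Genes of cardiolipin precursor supply and turnover were higher in 1 case by median-ratio scaling, the authors' table and the stricter p, and lower in 7 in the authors' table and 2 at the stricter p. Of the phosphatidate genes 4 were lower after centring, 5 in the authors' table and 1 at the stricter p. Of other phospholipid genes 0 were higher after centring, quantile normalization, median-ratio scaling, in the authors' edgeR table and at the stricter p, and 3 were lower in the first 4 of these. At an unadjusted p under 0.05 limma had 2 of them higher after centring and 2 after median-ratio scaling. Mitochondrial comparison genes were higher in 0 cases after centring, quantile normalization, no trend, median-ratio scaling, at the stricter p and in the authors' table (limma at an unadjusted p under 0.05 gave 0 after centring and 0 after median-ratio scaling), and 6 were lower at the stricter p. Ratios to the mitochondrial genes fell below the reported differences when the mean of the list replaced its median, to 0.25 for Cds1, 1.77 for Cds2, 0.775 for Lclat1, 1.72 for Pgs1, 1.07 for Ptpmt1 and 1.58 for Taz, and to 0.26 for Cds1 with a pseudocount of 0.1. That of Crls1 turned from 0.18 to -0.15 with the mean of the list, and ranged from -0.29 to 0.65 with a library left out.

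The replicate numbers are shared by the genotypes, but with 2 pairs, whose deviations had r = 0.348 across 12165 genes, they were not taken to pair the libraries. With the replicate number as a block, limma called 6325 genes higher and 746 lower, 2 cardiolipin genes higher (Cds2 at 0.72 and Pgs1 at 0.67) and 2 lower (Crls1, and Cds1 at -0.80). The block gave 6 precursor genes and 10 phosphatidate genes higher and 3 other phospholipid genes lower.

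With each library left out, on RPKM and after median-ratio scaling, the lone library of a genotype is assumed to vary like the other genotype's. The log2 fold change ranged from -2.40 to -0.83 for Crls1, -1.48 to -0.58 for Cds1, -0.011 to 1.05 for Cds2, -0.91 to -0.12 for Lclat1, -0.12 to 0.85 for Pgs1 and -0.29 to 0.91 for Taz. That of Ptpmt1 ranged from -0.19 to 0.24 on RPKM and from -1.02 to -0.23 after median-ratio scaling. Counts ranged from 377 to 4477 higher and 166 to 1050 lower over all genes, and from 0 to 3 higher and 0 to 3 lower for the cardiolipin genes. They ranged from 1 to 4 and 2 to 6 for precursor genes, 0 to 6 and 0 to 3 for phosphatidate genes, 0 to 6 and 1 to 3 for other phospholipid genes, and 0 to 1 and 0 to 13 for mitochondrial genes.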
